A study of Mus musculus with 12 samples.

Results

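Immune gene expression in the ascites of mice whose tumour cells carried wild-type focal adhesion kinase (FAK) and which received a FAK inhibitor was compared directly with that in mice given tumour cells labelled FAKKD. The comparison took the 3 samples whose titles end in FAKi and the 3 samples titled KTFAKKD3, KTFAKKD4 and KTFAKKD5, which are 6 of the 12 samples of the series, and it covered all 750 genes of the table. The inhibitor samples came from KTFAKWT tumour cells in mice gavaged with VS4716, a small-molecule FAK inhibitor, at 100 mg/kg 2 times a day. The FAKKD samples came from KTFAKKD tumour cells with no agent named in their labels. In all 6 samples the same number of tumour cells had been injected intraperitoneally, and RNA came from an equal number of ascites cells taken on day 21. The labels do not expand the letters KD, do not give the age or strain of the mice, and do not say that each sample was 1 mouse, so the p-values below measure only the spread between these samples. The inhibitor was given to the whole animal while the FAKKD label describes the injected tumour cells, so the genotype of the tumour, the drug in host cells and the gavage itself cannot be told apart in this comparison. No untreated or vehicle group entered it, and a gene that is higher in 1 group may have risen there or fallen in the other. Samples are named here by group and by the number in the title, as FAKi 4, 5 and 6 and FAKKD 3, 4 and 5.

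FAK is a cytoplasmic tyrosine kinase that is recruited to integrins at sites of cell adhesion and passes signals to Src-family kinases and to the MAP kinase pathway. It also acts as a scaffold that does not need its kinase activity. Ascites of ovarian cancer holds floating tumour cells together with macrophages, lymphocytes and other host cells, and the series title names tumour FAK and the CD155-TIGIT axis, an inhibitory signal between a ligand on tumour or myeloid cells and a receptor on T and NK cells. The question addressed was therefore in which immune genes an inhibitor given to the mouse and FAKKD tumour cells leave the ascites alike or unlike. Ptk2, which encodes FAK, and its relative Ptk2b were not analysed here, which leaves the group labels without a check on their target.

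The deposited log2 values were whole molecule counts multiplied by 1 factor for each sample. Recovered counts summed to 619033 to 760152 in the inhibitor samples and to 622954 to 755282 in the FAKKD samples. The factor was lower with the inhibitor, at 1.17 ± 0.063 (SD, n = 3) against 1.46 ± 0.19 (SD, n = 3), and the median gene stood at a log2 value of 7.52 ± 0.12 against 7.71 ± 0.03. The groups did not overlap in either measure, for which 3 against 3 samples give a smallest exact two-sided permutation p of 0.1. Each gene is therefore given on 2 scales: the deposited one, and one called relative to the panel, for which every sample was shifted to the same median. Lyz2, the lysozyme gene of macrophages and granulocytes, was the most abundant gene in all 6 samples, with 10.95% to 12.06% of counts in the inhibitor samples and 15.5% to 17.3% in FAKKD samples. Across genes, log2 values correlated at r = 0.976 to 0.986 among the inhibitor samples, 0.967 to 0.982 among the FAKKD samples and 0.946 to 0.9752 between the groups, so the ranges within FAKKD and between the groups overlapped. FAKKD 4 stood farthest from the inhibitor samples, at 0.946 to 0.952, against 0.963 to 0.967 for FAKKD 3 and 0.961 to 0.9752 for FAKKD 5.

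The groups differed over a sizeable share of the panel, and most of the differences were under 1 log2 unit. A gene is called here when limma's moderated test gave an adjusted p under 0.05 (Benjamini-Hochberg over 750 genes). As deposited, 214 genes were called (28.5%), of which 65 were higher with the inhibitor (8.67%) and 149 lower (19.9%). Relative to the panel 204 were called (27.2%), 100 higher (13.3%) and 104 lower (13.9%). The split between higher and lower followed the scaling: it was 104 and 109 with upper-quartile scaling, 110 and 87 with quantile normalization, and 150 and 80 with scaling to the total count. The median difference over all genes, inhibitor minus FAKKD, moved from -0.22 as deposited to -0.02 relative to the panel, and to 0.07 with scaling to the total. On both scales and in the same direction 168 genes were called (22.4%), 65 higher with the inhibitor (8.67%) and 103 lower (13.7%), and 0 genes were called in opposite directions. Only these genes are called higher or lower below, unless a scale is named. Of them, 10 were higher and 34 lower by at least 1 log2 unit on both scales. In 367 genes the 3 and 3 samples did not overlap as deposited (48.9%), and in 333 relative to the panel (44.4%). The count of calls changed when 1 library was left out, which also makes 1 group smaller and can by itself weaken the test. Both-scale calls were 43 higher and 56 lower without FAKi 4, 43 and 52 without FAKi 6, and 41 and 54 without FAKKD 3. Of the 168 genes, 79 were called on both scales whichever of the 6 samples was left out.

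**Figure D1:**
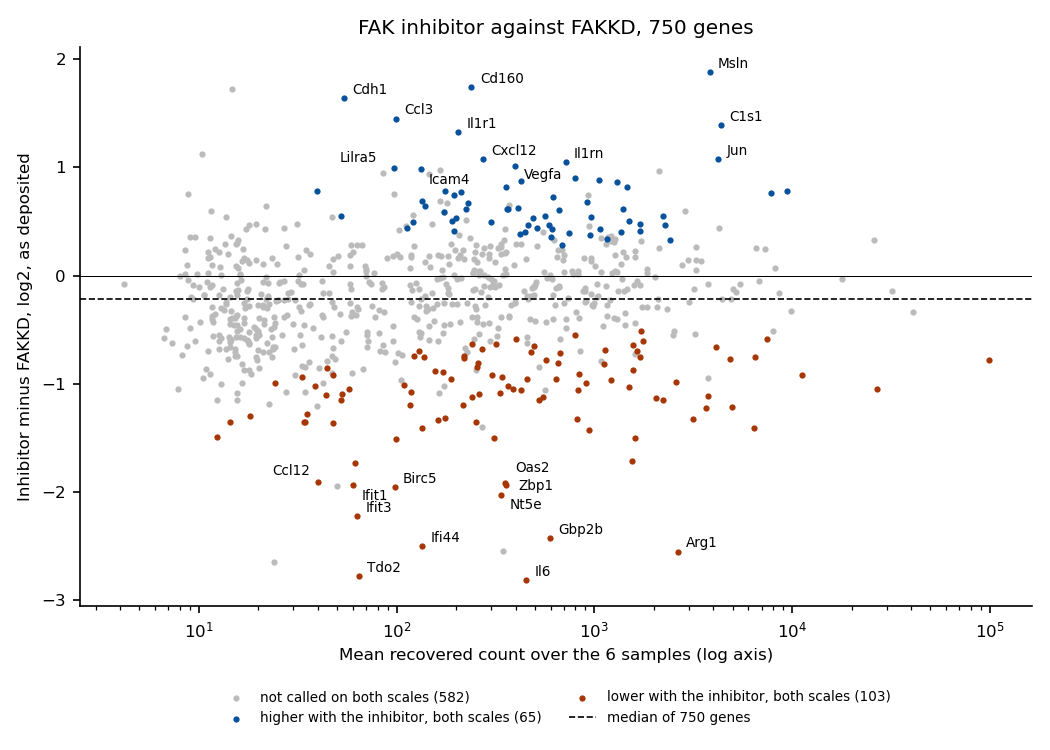
Difference between the inhibitor and FAKKD samples (log2, as deposited) against the mean recovered count over the 6 samples (log axis), 1 point per gene. Blue and red points are the 65 and 103 genes called higher and lower on both scales, and the dashed line is the median of 750 genes at -0.22. The 24 named genes have the 12 highest and 12 lowest differences among genes called on both scales with separate groups and a mean count of at least 20. Some genes outside that rule differed by more.

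Among tumour and epithelial genes, mesothelin separated the groups most clearly, while Epcam did not differ by the test. Msln encodes mesothelin, a surface protein of mesothelium and of ovarian tumours. Its recovered counts were 6621, 6704 and 5518 in the inhibitor samples and 1426, 1268 and 1438 in the FAKKD samples, and its log2 values were 12.88, 12.90 and 12.75 against 10.99, 11.04 and 10.86. Every inhibitor sample was far above every FAKKD sample, and the values within each group lay close together. The difference was 1.88 ± 0.09 (moderated SE, n = 3 and 3), or 3.67-fold, with an adjusted p of 1.05e-04 in limma's test, and 2.07 relative to the panel. Cdh1, the gene of the epithelial adhesion protein E-cadherin, had counts of 83, 76 and 99 against 26, 26 and 16 and differed by 1.64 ± 0.31 (adjusted p = 0.00925). Again the groups did not overlap, at counts low enough that counting error is part of the spread.

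Egfr, the epidermal growth factor receptor, was higher with the inhibitor by 0.49 ± 0.14 (adjusted p = 0.033), and the sphingomyelinase gene Smpd3 by 0.61 ± 0.08 (adjusted p = 0.00362). Epcam, the epithelial cell adhesion molecule, had counts of 39, 49 and 48 against 35, 30 and 51, which overlapped. Its difference was -0.05 ± 0.21 (adjusted p = 0.879), with a 95% interval from -0.54 to 0.44. The protease-activated receptor gene F2rl1 was lower as deposited (-0.75, adjusted p = 0.0315) but missed the threshold relative to the panel (adjusted p = 0.0897). In all, 4 of 11 epithelial and tumour genes were higher and 0 lower, against 8.67% and 13.7% of all genes. The median difference of the list was 0.36 as deposited and 0.56 relative to the panel, against -0.22 and -0.02 over all genes. FAKi 6 was the highest of the 6 samples in 8 of the 11 genes on the panel scale. It had the lowest deposited median of the 6 samples, at 7.40, so the shift raised it most. The share of all genes in which a given sample is highest or lowest was not counted, here or for the lists below. Without any 1 of FAKi 4, FAKi 5, FAKi 6, FAKKD 3 and FAKKD 4, 3 genes were higher, and without FAKKD 4, 1 was lower. These are levels in a mixture of cells, in which fewer cells of a type and less RNA per cell cannot be told apart.

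The markers of other cell types moved unevenly between the groups. Values of the 3 tumour or epithelial markers Epcam, Cdh1 and Msln, summed on the deposited linear scale, ranged from 7057 to 7767 with the inhibitor and from 1941 to 2201 in FAKKD samples, nearly all of it Msln. The 5 macrophage markers Csf1r, Cd68, C1qa, C1qb and Cd14 summed to 21307 to 23100 against 28721 to 33543. Emr1, a further macrophage marker that was measured, is not in that sum. The 3 fibroblast markers summed to 400.3 to 635 against 890 to 1360, the 3 mast cell markers to 3335 to 4188 against 5176 to 11512, and the 3 NK cell markers to 82.2 to 123 against 126 to 155. Those sums did not overlap between the groups as deposited, whereas the sums of B cell, T cell, neutrophil, endothelial, platelet and dendritic cell markers did. The sum over all 750 genes did not overlap either, at 771150 to 864515 with the inhibitor against 974136 to 1.03551e+06 in FAKKD samples. A lower marker sum on this scale is therefore not particular to the cell type. A sum can rest on 1 or 2 abundant genes. On both scales 2 of these 5 macrophage, 1 of 3 fibroblast, 0 of 3 mast cell and 0 of 3 NK cell markers were called lower. Emr1 was called lower as well (-1.22 as deposited). Samples of the 2 groups overlapped in each of the NK cell genes Ncr1, Klrb1c and Klrd1. The lowest count of any marker in any sample was 7, and T cell, NK cell and dendritic cell markers had counts of 9 to 87. The part of these cell types in the differences described below was not tested.

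**Figure D2:**
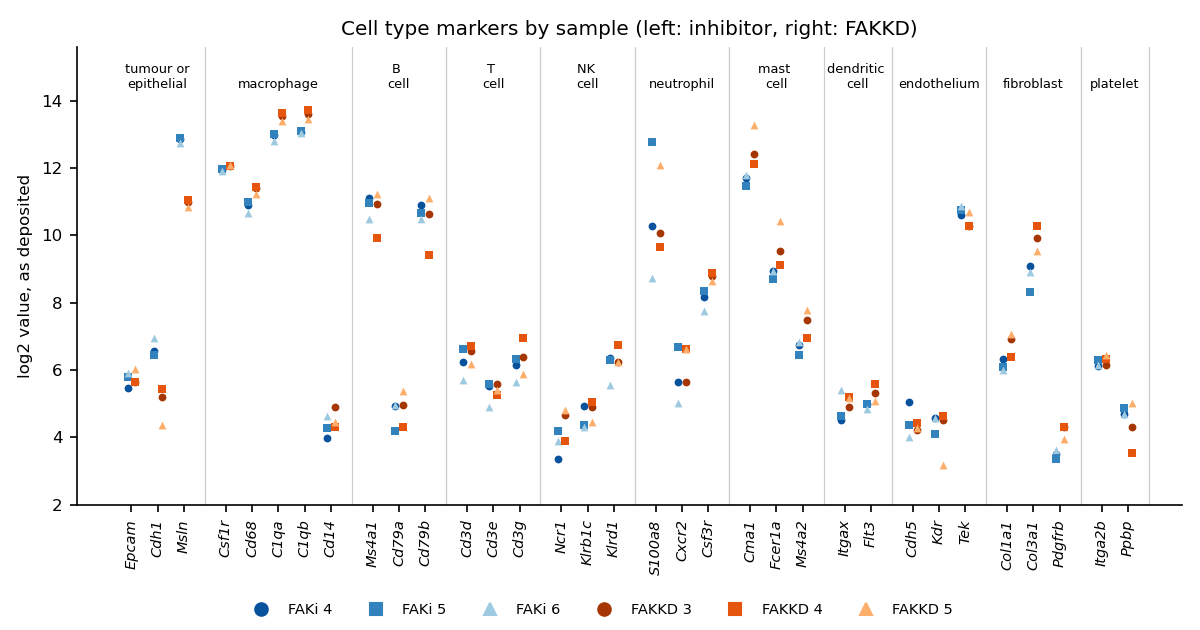
Deposited log2 values of cell type markers in each sample, with inhibitor samples in blue on the left of each gene and FAKKD samples in orange on the right. Msln stands between 12.75 and 12.90 in the 3 inhibitor samples and between 10.86 and 11.04 in the 3 FAKKD samples, while S100a8 spreads widely within both groups.

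Of 33 measured genes of the type I interferon response, 14 were lower with the inhibitor than in FAKKD samples, against 13.7% of all genes, 2 were higher and 17 were not called on both scales. Type I interferons signal through the receptor chains Ifnar1 and Ifnar2 to a complex of STAT proteins and an interferon regulatory factor, which binds a short element in the promoters of antiviral genes. The median difference of the list was -0.57 as deposited and -0.38 relative to the panel. Across the fits that left out 1 library each, the number lower was 8 without FAKi 4, 9 without FAKi 5 or FAKi 6, 10 without FAKKD 3, 11 without FAKKD 4 and 14 without FAKKD 5.

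The promoters of a few of these genes show the element. The windows below run from 250 bases before to 50 bases after the transcription start, are printed 5′ to 3′ on the strand of the gene from RefSeq (GRCm38.p6), and carry matches to the element in capitals. A match was GAAA, 2 bases of any kind and GAAA again, or the reverse complement, TTTC, 2 bases and TTTC. Ifit3 (chr19:34583279-34583578, plus strand) and Ifit1 (chr19:34640639-34640938, plus strand) each held 2 matches, Rsad2 (chr12:26456403-26456702, minus strand) held 1, and Isg15 (chr4:156200769-156201068, minus strand) held 3 that overlap by 4 bases. Isg20 (chr7:78913174-78913473, plus strand, 1 of its 3 windows) was among the genes that were higher with the inhibitor, and these letters are not in its window.
Ifit3: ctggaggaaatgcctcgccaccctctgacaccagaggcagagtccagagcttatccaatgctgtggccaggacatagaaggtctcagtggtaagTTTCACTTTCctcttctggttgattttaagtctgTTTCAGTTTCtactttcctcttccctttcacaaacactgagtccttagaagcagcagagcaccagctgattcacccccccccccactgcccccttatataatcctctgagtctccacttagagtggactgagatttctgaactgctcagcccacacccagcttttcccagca
Ifit1: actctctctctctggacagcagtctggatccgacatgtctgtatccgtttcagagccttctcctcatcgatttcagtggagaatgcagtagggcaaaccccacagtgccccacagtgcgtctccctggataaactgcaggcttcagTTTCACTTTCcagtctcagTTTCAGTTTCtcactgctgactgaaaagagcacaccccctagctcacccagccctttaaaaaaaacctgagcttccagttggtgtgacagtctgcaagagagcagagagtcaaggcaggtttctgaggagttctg
Rsad2: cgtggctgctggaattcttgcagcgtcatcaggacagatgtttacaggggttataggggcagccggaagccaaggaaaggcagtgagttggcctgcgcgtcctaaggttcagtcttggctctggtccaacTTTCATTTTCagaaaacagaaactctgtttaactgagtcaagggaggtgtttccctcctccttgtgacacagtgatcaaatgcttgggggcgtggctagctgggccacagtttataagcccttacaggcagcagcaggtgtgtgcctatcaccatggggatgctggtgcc
Isg15: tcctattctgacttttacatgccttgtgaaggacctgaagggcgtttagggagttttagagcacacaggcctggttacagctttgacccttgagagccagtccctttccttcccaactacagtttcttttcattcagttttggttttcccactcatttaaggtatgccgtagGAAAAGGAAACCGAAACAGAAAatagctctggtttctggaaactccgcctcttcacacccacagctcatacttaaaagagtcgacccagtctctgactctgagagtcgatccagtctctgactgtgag
Isg20: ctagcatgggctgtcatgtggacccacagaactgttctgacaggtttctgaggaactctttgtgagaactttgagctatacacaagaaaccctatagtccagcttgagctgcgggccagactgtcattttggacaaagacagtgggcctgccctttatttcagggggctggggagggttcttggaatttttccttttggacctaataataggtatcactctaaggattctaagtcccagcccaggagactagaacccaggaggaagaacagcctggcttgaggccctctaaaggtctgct

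The element was present in 1079 of 27025 gene promoters of this length in RefSeq (3.99%) and in 51 of the 553 panel genes with a window (9.22%). Among panel genes with a window it was found in 16 of 71 that were lower with the inhibitor (22.5%), in 2 of 48 that were higher (4.17%) and in 33 of 434 that were neither (7.6%). Within the interferon list it was found in 7 of 11 lower genes and in 7 of 14 genes that were not called. The printed genes are picked examples: Ifi44, Ifit2, Irf7 and Herc6 were lower without a match, and Stat2 and Ifih1 were not called but had one. These matches describe the sequence and do not show that a factor is bound.

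Among the 14 lower genes, Ifi44, an interferon-induced gene, had the largest difference. Its counts were 47, 49 and 47 with the inhibitor and 178, 291 and 198 in FAKKD samples. The difference was -2.50 ± 0.26 (adjusted p = 0.00195), and the inhibitor samples were almost identical. Ifit3 and Ifit1 encode proteins with tetratricopeptide repeats that act against viruses. Counts of Ifit3 were 21, 31 and 24 against 72, 160 and 72, a difference of -2.22 ± 0.41 (adjusted p = 0.00906). Counts of Ifit1 were 20, 33 and 35 against 72, 125 and 76, a difference of -1.94 ± 0.37 (adjusted p = 0.00939).

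Oas2 and Oas3 make oligoadenylates that activate RNase L against viral RNA. Oas2 had counts of 163, 212 and 149 against 457, 572 and 556, and differed by -1.91 ± 0.18 (adjusted p = 0.00157), while Oas3 differed by -1.36 ± 0.18. The DNA and RNA sensor Zbp1 had counts of 163, 205 and 135 against 389, 836 and 411 and differed by -1.94 ± 0.37 (adjusted p = 0.00939). Ifit2 (-1.73), the antiviral enzyme gene Rsad2 (-1.35), the ISG15 protease gene Usp18 (-1.35), the tethering factor Bst2 (-1.13), the ubiquitin-like modifier Isg15 (-1.07), the transcription factor Irf7 (-0.95), Herc6 (-0.85) and Ddx60 (-0.69) completed the lower genes. The groups did not overlap in any of the 14, a trait of 48.9% of all genes as deposited and 44.4% relative to the panel. Because the 14 were chosen by their calls on the same values, this separation is no further evidence. FAKKD 4 was the highest sample in all of the 14 and in 21 of the 33 genes on the panel scale. On that scale it was also highest in 18 of 32 cytotoxic T and NK cell genes, but in only 3 of 20 NF-kB and TNF signalling genes. Without FAKKD 4, 11 genes of the list were lower.

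The 2 higher genes were Isg20 and Irf3. Isg20 encodes an exonuclease that degrades viral RNA, and Irf3 the transcription factor that starts interferon beta expression. Counts of Isg20 were 1302, 1260 and 1099 against 628, 597 and 614, a difference of 0.68 ± 0.11 (adjusted p = 0.00526). Irf3 had counts of 754, 794 and 618 against 446, 344 and 403 and differed by 0.55 ± 0.11 (adjusted p = 0.0122). In both genes the groups were separate, opposite to the direction of the 14. The receptor chain Ifnar2 differed by -0.17 as deposited and 0.02 relative to the panel (adjusted p = 0.893), with a 95% interval from -0.21 to 0.25 on that scale.

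**Figure D3:**
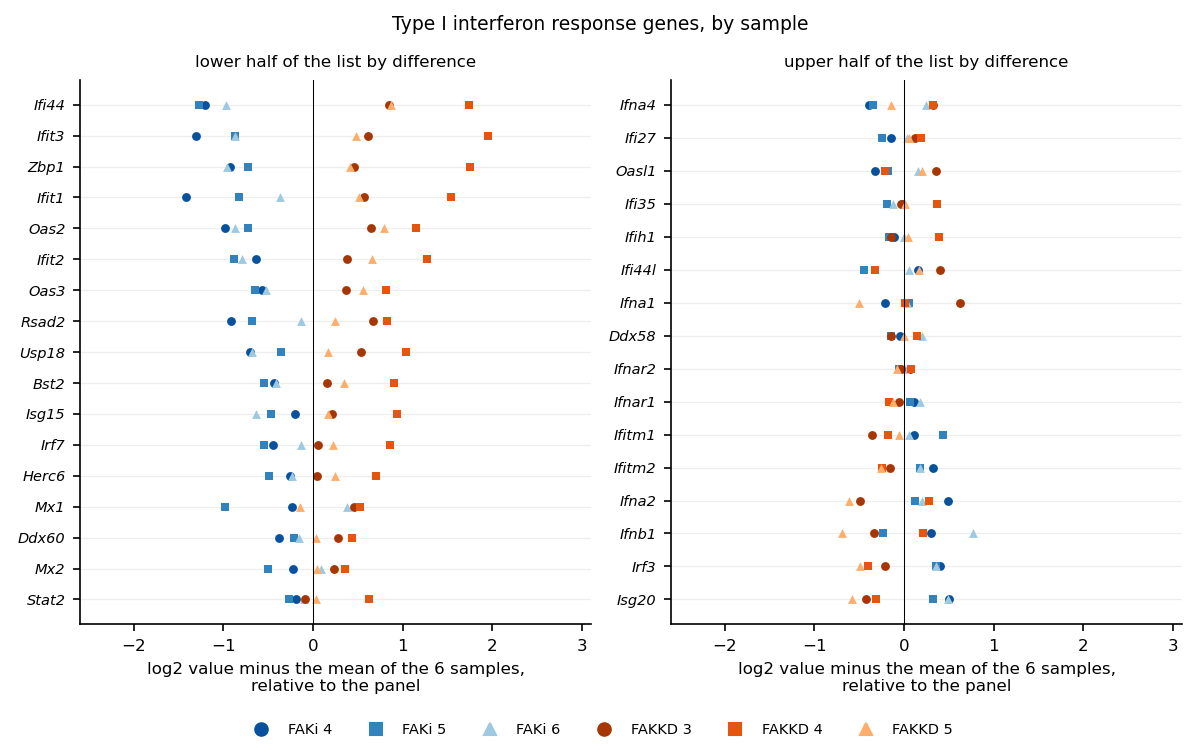
Type I interferon response genes by sample, each value being log2 relative to the panel minus the mean of the 6 samples. In the 14 genes called lower, all 3 inhibitor samples lie left of all 3 FAKKD samples and FAKKD 4 is farthest right, and Irf3 and Isg20 show the opposite order.

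Of 13 genes that respond mainly to interferon gamma, 3 were lower and 0 higher, against 13.7% and 8.67% of all genes, with a median of -0.80 as deposited and -0.60 relative to the panel. Gbp2b, a guanylate-binding protein of defence against intracellular microbes, had counts of 286, 253 and 110 against 716, 1667 and 542 and differed by -2.42 ± 0.54 (adjusted p = 0.0175). Its call was lost without FAKi 6, the lowest sample (adjusted p = 0.0682). Gbp5 (-1.41) and Socs1 (-1.05), an inhibitor of JAK signalling, were also lower. The tryptophan-degrading enzyme gene Ido1 was lower as deposited only (-0.80, adjusted p = 0.0388). The number lower was 0 without FAKi 6, 1 without FAKi 5 or FAKKD 3, 2 without FAKi 4, 5 without FAKKD 4 and 7 without FAKKD 5.

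MHC class I genes, which present peptides from inside the cell to CD8 T cells, included 5 lower and 1 higher of 15. Over all genes 13.7% were lower and 8.67% higher. The median was -0.63 as deposited and -0.44 relative to the panel. The heavy chain gene H2-K1 had counts of 1629, 1782 and 1065 against 2323, 3170 and 2317 and differed by -1.13 ± 0.25 (adjusted p = 0.016). H2-D1 differed by -0.92, the immunoproteasome subunit Psmb9 by -1.12, the peptide transporter Tap1 by -1.06 and H2-M3 by -0.63. Tapbp, which encodes tapasin, the bridge between the transporter and the heavy chain, was higher, with counts of 2083, 1927 and 1738 against 1153, 1077 and 1040 (0.50 ± 0.12, adjusted p = 0.0225). FAKKD 4 was the highest sample in 11 of the 15 genes on the panel scale. The number lower was 0 without FAKi 6, 1 without FAKi 4, FAKi 5 or FAKKD 3, 5 without FAKKD 4 and 8 without FAKKD 5, and 0 genes of the list were higher without any 1 inhibitor sample or FAKKD 3.

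MHC class II genes, which present peptides from outside the cell to CD4 T cells, gave no call on either scale in 10 measured genes. Their median was -0.15 as deposited and 0.05 relative to the panel. The smallest p belonged to the peptide-loading chain H2-DMb1 (-0.69, adjusted p = 0.0547), and the transactivator Ciita had a difference of -0.16 (adjusted p = 0.405). Without FAKKD 5, 2 class II genes were lower.

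Of 26 macrophage and monocyte genes, 8 were lower with the inhibitor, 1 was higher and 17 were not called on both scales, where all genes gave 13.7% lower and 8.67% higher, with a median of -0.46 as deposited and -0.26 relative to the panel. Emr1, the gene of the surface protein F4/80, had counts of 3114, 2529 and 2073 against 4910, 4948 and 4496 and differed by -1.22 ± 0.16 (adjusted p = 0.00362). The integrin chain Itgam (CD11b) differed by -1.22 ± 0.16, and the cholesterol exporter Abcg1 by -1.50 ± 0.23. Lyz2 (-0.78), the cathepsin gene Ctss (-0.75), the NADPH oxidase chain Cybb (-0.66), the complement subunit C1qa (-0.59) and Cd68 (-0.51) were lower as well.

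Csf1, the growth factor of macrophages, was higher, with counts of 1219, 1247 and 879 against 519, 447 and 461 (0.91 ± 0.14, adjusted p = 0.00537). Its receptor Csf1r had counts of 3466, 3510 and 3114 against 2997, 2590 and 3356 and differed by -0.13 ± 0.07 as deposited (adjusted p = 0.214) and 0.07 relative to the panel. C1qb was lower as deposited only (-0.51, adjusted p = 0.00939 and 0.0656 relative to the panel). The number of macrophage genes called lower was 3 without FAKi 6, 5 without FAKi 4, FAKi 5 or FAKKD 3, 6 without FAKKD 4 and 10 without FAKKD 5, and 2 were higher without FAKKD 4 or FAKKD 5.

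Genes of suppressive mediators held some of the largest differences in the table. Arg1 encodes arginase, which depletes arginine and marks alternatively activated macrophages. Its counts were 1006, 1076 and 673 with the inhibitor and 5815, 3620 and 3655 in FAKKD samples, a difference of -2.55 ± 0.23, or 5.85-fold lower (adjusted p = 0.00157). Nt5e and Entpd1 encode CD73 and CD39, which convert extracellular ATP to adenosine. Nt5e had counts of 191, 178 and 110 against 620, 518 and 414 and differed by -2.03 ± 0.25 (adjusted p = 0.00312), while Entpd1 differed by -0.92 ± 0.20. In both genes the groups were separate.

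Il10, an anti-inflammatory cytokine gene, was lower (-1.11), with counts of 40, 38 and 21 against 54, 62 and 50, and so was Cybb. Vegfa and Tgfb3 went the other way. Vegfa, the main growth factor of blood vessels, had counts of 643, 530 and 535 against 258, 214 and 212 (1.01 ± 0.14, adjusted p = 0.00407). Tgfb3, a transforming growth factor beta, had counts of 1759, 1905 and 1711 against 852, 608 and 974 (0.86 ± 0.11, adjusted p = 0.00312). Altogether 5 of 21 suppressive mediators were lower and 2 higher, against 13.7% and 8.67% of all genes, with medians of -0.06 and 0.13 on the 2 scales. The number lower was 2 without FAKi 6 or FAKKD 3, 3 without FAKi 4 or FAKKD 4, 4 without FAKi 5 and 6 without FAKKD 5, and 4 were higher without FAKKD 5. Tdo2, a tryptophan-degrading enzyme gene outside that list, had counts of 18, 28 and 15 against 109, 105 and 111 and differed by -2.77 ± 0.24 (adjusted p = 0.00157).

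**Figure D4:**
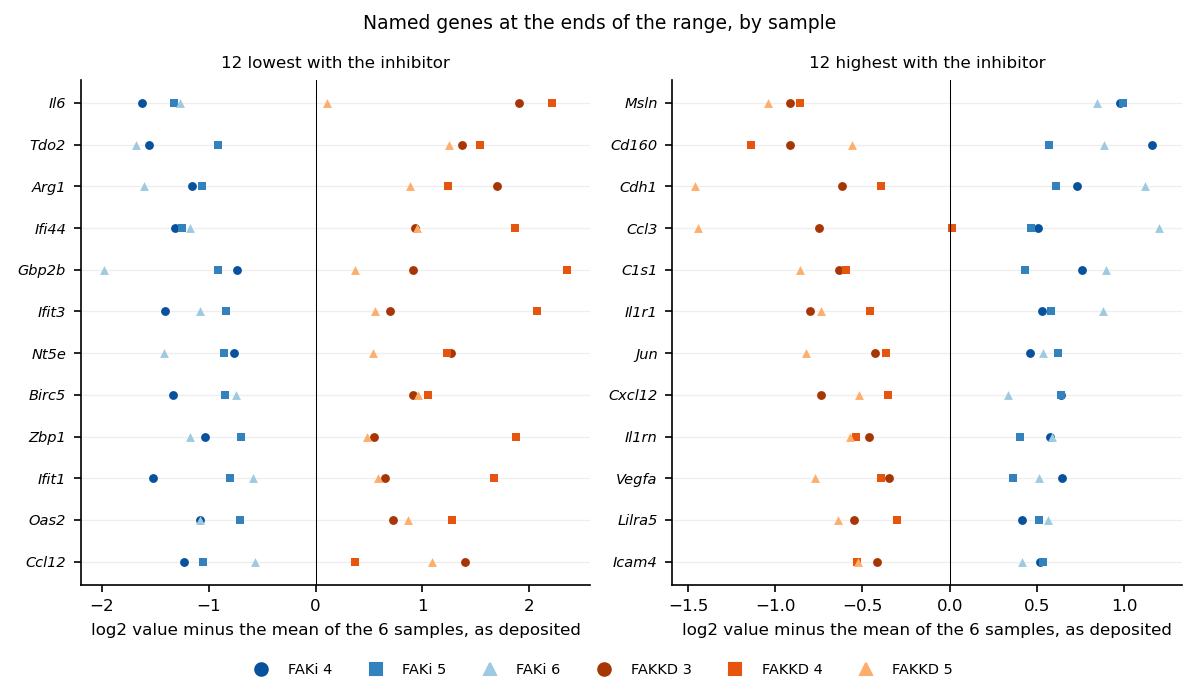
The 12 genes with the lowest and the 12 with the highest difference among those called on both scales with separate groups, by sample, as deposited log2 value minus the mean of the 6 samples. FAKKD 5 lies closest to the inhibitor samples for Il6, and FAKKD 4 lies farthest right for Ifi44, Gbp2b, Ifit3, Zbp1 and Ifit1.

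Of those 24 genes, 22 were called on both scales in every fit that left out 1 library, the exceptions being Gbp2b and Ccl3. Il6 had the lowest difference of all. It encodes interleukin-6, an inflammatory cytokine abundant in ovarian cancer ascites. Counts were 107, 132 and 125 against 986, 1044 and 314, so that FAKKD 5 lay between the inhibitor samples and the other FAKKD samples. The difference was -2.81 ± 0.51 (adjusted p = 0.00878), and it ranged from -3.46 to -2.41 when single libraries were left out.

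Within the interleukin-1 and interleukin-6 families, the ligands Il6 and Il1a were lower, while the receptor chains Il1r1 and Il1rap and the antagonist Il1rn were higher. Il1a differed by -1.33 ± 0.31 (adjusted p = 0.0196). The interleukin-1 receptor Il1r1 had counts of 290, 300 and 337 against 92, 100 and 106 (1.33 ± 0.15, adjusted p = 0.00232). Its co-receptor Il1rap differed by 0.75 ± 0.11. Il1rn, the natural antagonist of the receptor, had counts of 1099, 974 and 1011 against 427, 347 and 437 (1.05 ± 0.09, adjusted p = 0.00157). These 3 were higher in every fit that left out 1 library. The ligand gene Il1b, which the test did not separate, had counts of 171, 304 and 213 against 280, 350 and 132 (-0.38, adjusted p = 0.55). In the family of 18 genes, 3 were higher and 2 lower, against 8.67% and 13.7% of all genes, with medians of -0.22 and -0.03. The number lower was 1 without any single inhibitor sample or FAKKD 3, and 3 without FAKKD 5.

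Chemokines, the proteins that direct cell migration, gave 5 higher and 2 lower genes of 36, with medians of -0.10 and 0.09. Over all genes 8.67% were higher and 13.7% lower. Cxcl12, the ligand of Cxcr4, had counts of 433, 433 and 320 against 133, 149 and 171 (1.07 ± 0.14, adjusted p = 0.00362). Cxcr4 itself was higher too (0.82 ± 0.20, adjusted p = 0.0235), with counts of 423, 663 and 398 against 242, 209 and 210. Both genes of this ligand and receptor pair were thus higher with the inhibitor, with separate groups, although the Cxcr4 call was lost without FAKi 6 or FAKKD 3 as deposited (adjusted p at most 0.0555).

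Ccl3, which attracts monocytes and T cells, had counts of 132, 128 and 194 against 44, 64 and 30 (1.45 ± 0.39, adjusted p = 0.0298). That call was lost as deposited without any single inhibitor sample or FAKKD 3 (adjusted p up to 0.111). Cxcl16 (0.88), Ccl26 (0.64) and Cx3cl1 (0.55) were the other higher chemokines. The monocyte chemokine Ccl12 had counts of 16, 18 and 23 against 79, 33 and 70 (-1.90 ± 0.32, adjusted p = 0.00707), and Ccl22, made by dendritic cells and macrophages, was lower by -1.32 ± 0.18. Cxcl10, an interferon-induced chemokine, had counts of 25, 20 and 17 against 44, 157 and 37 and was called on neither scale (-1.95, adjusted p = 0.0512). The number of higher chemokines was 3 without FAKi 5, FAKi 6 or FAKKD 3 and 4 without each of the others, and 3, 4 and 6 were lower without FAKi 6, FAKKD 4 and FAKKD 5. Of 19 chemokine receptors, Cxcr4 was higher and 3 were lower, against 8.67% and 13.7% of all genes, with medians of -0.47 and -0.27. Lower were the chemerin receptor Cmklr1 (-0.96 ± 0.11), Ccrl2 (-0.75) and Xcr1 (-1.30), the receptor of cross-presenting dendritic cells. Xcr1 had a mean count of only 18.2. The receptors lower numbered 1 without FAKi 5, FAKi 6 or FAKKD 3, 2 without FAKi 4 or FAKKD 4 and 4 without FAKKD 5, and 0 were higher without FAKi 6 or FAKKD 3.

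On the CD155-TIGIT axis, the 2 ligand genes were higher with the inhibitor and the 2 receptor genes were not called. Pvr encodes CD155. Its counts were 257, 222 and 288 against 140, 121 and 168, and its log2 values of 8.19, 7.98 and 8.49 lay above those of 7.64, 7.65 and 7.76 in FAKKD samples. The difference was 0.53 ± 0.15 (adjusted p = 0.0347), or 1.45-fold, and 0.73 relative to the panel (adjusted p = 0.0298). Pvrl2, the gene of the related ligand CD112, had counts of 1732, 1670 and 1634 against 1048, 842 and 1227 (0.40 ± 0.08, adjusted p = 0.0137, and 0.59 relative to the panel). Both ligands were separate between the groups on both scales, as were 48.9% of all genes as deposited and 44.4% relative to the panel. For called genes such separation is no further evidence.

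The ligand calls were not stable when a sample was left out, which also makes the test weaker. On both scales 0 of 2 were called without FAKi 4 or FAKKD 3, and 1 of 2 without FAKi 6 or FAKKD 4. As deposited, the adjusted p of Pvr reached 0.103 and that of Pvrl2 reached 0.0587. In those fits the difference ranged from 0.40 to 0.65 for Pvr and from 0.36 to 0.44 for Pvrl2. Tigit, the inhibitory receptor, had counts of 16, 27 and 36 against 25, 24 and 22 and a difference of -0.23 ± 0.35 (adjusted p = 0.65), with a 95% interval from -1.07 to 0.61. Cd96, a competing receptor of the same ligands, had counts of 10 to 17 against 12 to 19 (-0.59 ± 0.36, adjusted p = 0.252). The intervals of both receptors reached beyond 1 log2 unit below 0 as deposited, so a difference of that size was not excluded.

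Other checkpoint and costimulation genes included 1 higher and 3 lower of 24, against 8.67% and 13.7% of all genes, with medians of -0.38 and -0.18. Cd160, a receptor of NK cells and some T cells, had counts of 477, 316 and 358 against 90, 66 and 127 (1.75 ± 0.20, adjusted p = 0.0026), the second largest positive difference among the called genes with separate groups. Cd200, a ligand that restrains macrophages, was lower (-0.75 ± 0.10), as were Lgals3 (-0.60), the gene of galectin-3, and Havcr2 (-1.02), the gene of TIM-3. The lower genes numbered 1 without FAKi 4, 2 without FAKi 5, FAKi 6, FAKKD 3 or FAKKD 4 and 4 without FAKKD 5. Pdcd1, the gene of PD-1, had counts of 23, 26 and 27 against 50, 48 and 33 and was called as deposited only (-1.07, adjusted p = 0.0276).

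Lymphocyte genes were called lower at shares at or below the 13.7% of all genes in the lists that follow, and many had few counts. Of 22 T cell genes, 1 was lower and 0 were higher (medians -0.30 and -0.11), and 0 were lower without FAKi 4, FAKi 6, FAKKD 3 or FAKKD 5. Cd2 (-0.68, adjusted p = 0.0736), Cd4 (-0.60, adjusted p = 0.0778) and Ccr7 (-0.82, adjusted p = 0.121) missed the threshold. Of 32 cytotoxic T and NK cell genes, 4 were lower and 0 higher (medians -0.55 and -0.36), and 21 had a mean count under 20. The lower genes were the receptor Cd244 (-0.94), the protease gene Ctsw (-1.01) and the Ly49-family genes Klra2 (-1.09) and Klra27 (-1.49), whose near-identical relatives make their probes' values uncertain. Klra27 had a mean count of only 12.3. Between 1 and 6 of these genes were lower when single libraries were left out, with 1 without FAKi 6 or FAKKD 3, 2 without FAKi 4 and 6 without FAKKD 5.

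Among 22 regulatory and helper T cell genes, 1 was higher, and the cytokine genes Il4 (-1.35) and Il10 and the transcription factor gene Stat4 (-0.74) were lower (medians -0.02 and 0.18). When a library was left out, 0 genes of the list were lower without FAKi 5, FAKi 6, FAKKD 3 or FAKKD 4, and 1 was lower without FAKi 4 or FAKKD 5. Of 19 B cell genes, 2 were lower, among them the kinase gene Btk (-0.58 ± 0.10), and 0 were higher (medians -0.07 and 0.12). Ms4a1, the gene of CD20, had counts of 1942, 1774 and 1155 against 1361, 579 and 1868 (0.17 ± 0.34, adjusted p = 0.736). FAKKD 4 was lowest in 13 of the 19 genes on the panel scale, and Btk was not called relative to the panel in 5 of the 6 fits without a library. The 4 plasma cell genes included 1 higher, Xbp1 (0.55 ± 0.10, adjusted p = 0.00909), a transcription factor of secretory cells (medians -0.28 and -0.08). Of 18 genes of lymphoid organisation, the lymphoid transcription factor Ikzf1 was lower (-0.76) and 0 were higher (medians -0.22 and -0.02), a call lost relative to the panel without FAKi 4, FAKi 6 or FAKKD 3, and without FAKKD 5 there were 2 lower and 1 higher.

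Of 26 genes of the MAP kinase pathway and of the AP-1 transcription factor, 7 were higher with the inhibitor, against 8.67% of all genes, while 0 were lower and 19 were not called on both scales. MAP kinases pass signals from growth factor receptors and adhesion sites to AP-1, of which Jun is a subunit. The median of the list was 0.20 as deposited and 0.39 relative to the panel, and Egr3, an early growth response gene, was lower as deposited only (-0.86, adjusted p = 0.0347). Jun had counts of 5960, 6642 and 5721 against 2561, 2290 and 2152, and log2 values of 12.72, 12.88 and 12.80 against 11.83, 11.89 and 11.44. The difference was 1.08 ± 0.13, or 2.11-fold (adjusted p = 0.00312). Mapk3, the gene of ERK1, had counts of 2068, 2003 and 1961 against 1005, 805 and 966 (0.82 ± 0.09, adjusted p = 0.00195).

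The kinase genes Map2k1 (0.37) and Map2k4 (0.46), the AP-1 family member Atf2 (0.47) and the coactivator Crebbp (0.34) were also among the higher genes. All 7 were separate between the groups, as were 48.9% of all genes as deposited and 44.4% relative to the panel. That separation goes with being called and adds nothing to the calls. FAKi 6 was the highest sample in all 7 on the panel scale, to which the shift raised it most, but as deposited Jun was highest in FAKi 5. On the panel scale FAKi 6 was also highest in 14 of 20 NF-kB and TNF signalling genes, but in only 2 of 17 neutrophil genes. Without single libraries 5 to 7 of them were higher, and without FAKi 6 there were 5. Under total scaling, upper-quartile scaling and quantile normalization the count was 7 higher and 0 lower, with no trend 6 and 0, and with array weights 9 and 3, and 1 gene was lower without FAKKD 4 or FAKKD 5.

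Other signalling lists had called genes in both directions, where all genes gave 8.67% higher and 13.7% lower. Of 20 NF-kB and TNF signalling genes, Relb (0.62 ± 0.13) and Rela (0.40 ± 0.09), both subunits of NF-kB, were higher and Nfkbia (-0.81 ± 0.17), its inhibitor and target, was lower (medians 0.01 and 0.20). Without FAKKD 3 none of those 3 was called on both scales. Of 12 JAK-STAT genes, Stat3 (0.47 ± 0.08, adjusted p = 0.00845) and Jak2 (0.43 ± 0.11) were higher and Socs1 and Stat4 lower (medians -0.02 and 0.17). The calls without single libraries fell to 1 higher and 0 lower without FAKi 5, FAKi 6 or FAKKD 3. Of 26 Toll-like receptor and inflammasome genes, Txnip (0.33), a binding partner of thioredoxin, was higher, and Pycard (-1.51 ± 0.21, adjusted p = 0.00384), the adaptor of inflammasomes, and Ly86 (-0.64) were lower (medians -0.09 and 0.10). The number lower there was 1 without FAKi 4, FAKi 6 or FAKKD 3 and 4 without FAKKD 5, and Txnip was called on both scales only without FAKi 6 or FAKKD 5.

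**Figure D5:**
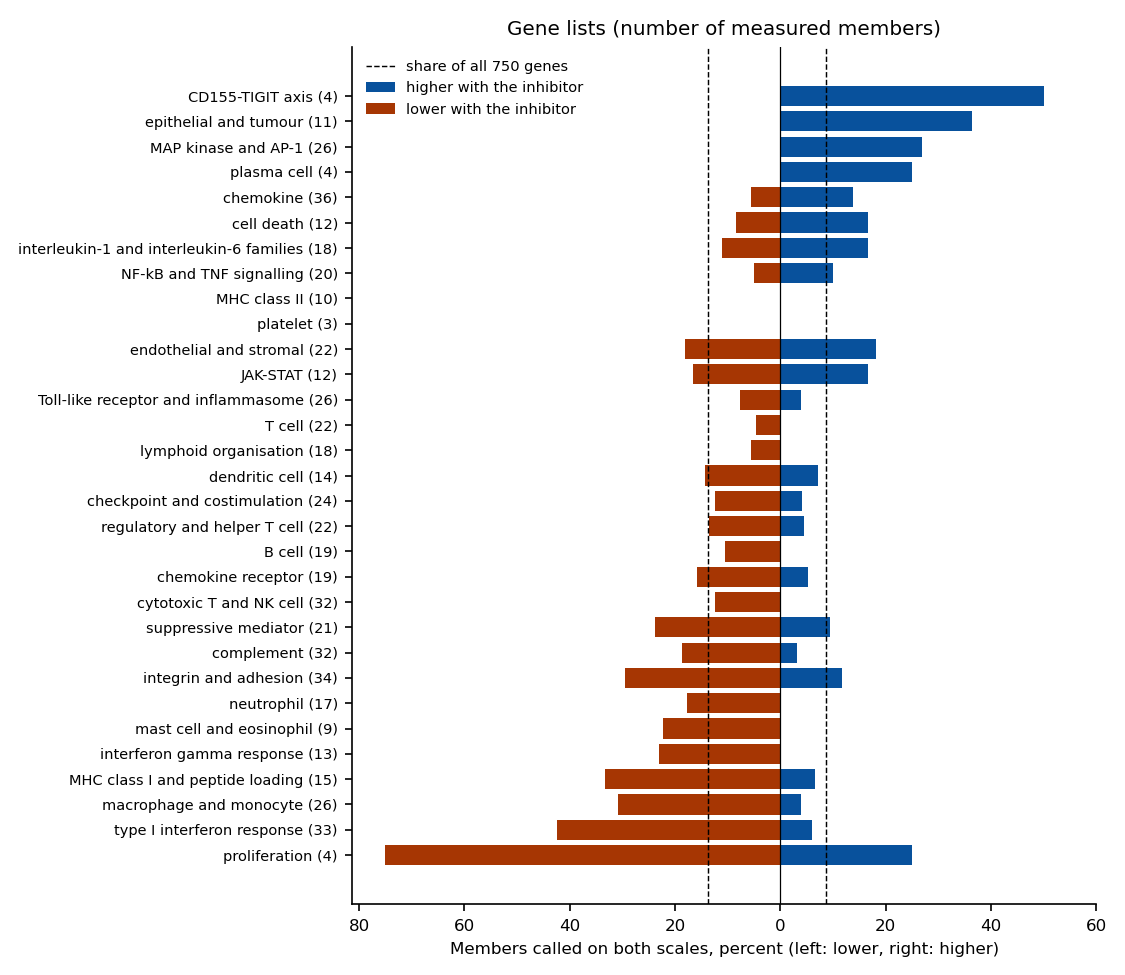
Share of the measured members of each gene list called on both scales, with higher to the right and lower to the left, in percent. Dashed lines mark the shares over all 750 genes, 8.67% higher and 13.7% lower, and the numbers of members stand in parentheses.

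Integrin and adhesion genes, through which FAK is normally engaged, were called in both directions. Of 34 genes, 10 were lower and 4 higher, against 13.7% and 8.67% of all genes, with medians of -0.20 and -0.01. The lower ones included the leukocyte integrin chains Itgam, Itgb2 (-0.98 ± 0.15) and Itga4 (-0.91 ± 0.12), the laminin receptor chain Itga6 (-1.12 ± 0.15), Icam2 (-1.50 ± 0.24) and Selplg (-1.15 ± 0.17), the selectin ligand of leukocytes. Fibronectin (Fn1), a matrix ligand of integrins, had counts of 23855, 19456 and 17032 against 42056, 27707 and 31283 (-1.04 ± 0.17, adjusted p = 0.00642). Thrombospondin 1 (Thbs1) differed by -1.33 ± 0.17. The tetraspanin gene Cd81 was higher, with counts of 11018, 10639 and 10199 against 5319, 4281 and 5642 (0.76 ± 0.08, adjusted p = 0.00178). Icam4 (0.98 ± 0.11), Icam1 (0.53 ± 0.13) and Cdh1 were the other higher genes, and single omissions left 7 to 9 lower and 3 to 4 higher.

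Endothelial and stromal genes numbered 4 higher and 4 lower of 22, against 8.67% and 13.7% of all genes (medians -0.26 and -0.07). Besides Vegfa and Cxcl12, the platelet-derived growth factor gene Pdgfc (0.61 ± 0.09) and the basement membrane collagen Col4a1 (0.59 ± 0.11) were higher. Besides Fn1 and Thbs1, the fibrillar collagen Col3a1 (-1.15 ± 0.25) and the protease gene Plau (-0.89 ± 0.16) were lower. The number lower was 1 without FAKi 6 and 2 without FAKi 5. The angiopoietin receptor Tek was higher relative to the panel only (0.51, adjusted p = 0.0495).

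Complement genes, which encode a cascade of serum proteins made in part by macrophages, were lower in 6 and higher in 1 of 32 cases (medians -0.10 and 0.09). Over all genes 13.7% were lower and 8.67% higher. C4b had counts of 4827, 4495 and 3073 against 9057, 8344 and 8659 (-1.41 ± 0.16, adjusted p = 0.00232). Cfb (-1.43 ± 0.25), C2 (-1.19 ± 0.17), Cfp (-0.77), Serping1 (-0.75) and C1qa were lower too. C1s1, the protease of the first component that cleaves C4 and C2, had counts of 7180, 5700 and 7195 against 2175, 1914 and 2053 (1.39 ± 0.14, adjusted p = 0.00178). The protease and its 2 substrates thus differed in opposite directions, each with separate groups. The number lower was 3 without FAKi 4, FAKi 5, FAKKD 3 or FAKKD 4, and the number higher was 2 without FAKKD 3 and 3 without FAKKD 5.

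All 4 proliferation genes were called, against 22.4% of all genes: the mitotic regulators Birc5 and Cdk1 and the cyclin Ccnd3 were lower and Tfrc, the transferrin receptor, was higher (medians -0.90 and -0.71). Birc5 encodes survivin, a protein of dividing cells, and had counts of 38, 53 and 52 against 144, 136 and 164 (-1.95 ± 0.18, adjusted p = 0.00157). Ccnd3 had counts of 518, 537 and 439 against 787, 685 and 871 (-0.96 ± 0.08, adjusted p = 0.00157). Cdk1 (-0.85) was called on both scales only without FAKKD 5 among the fits that left out a library, and Tfrc (0.43) lost its call as deposited without any 1 inhibitor sample or FAKKD 3.

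Among 12 cell death genes the survival genes Bcl2l1 (0.62 ± 0.10) and Bcl2 (0.69 ± 0.15) were higher and Birc5 lower (medians -0.19 and 0.00). Beside this list and those that follow, all genes gave 8.67% higher and 13.7% lower. The Bcl2 call was lost without FAKi 6, and Fas was lower as deposited only (-0.47, adjusted p = 0.0347). Of 9 mast cell and eosinophil genes, the tryptase gene Tpsab1 (-0.92) and Il1rl1 (-1.05), the interleukin-33 receptor, were lower (medians -0.73 and -0.54), but 0 were called without FAKi 4, FAKi 5, FAKi 6, FAKKD 3 or FAKKD 5 and 4 without FAKKD 4. The mast cell chymase Cma1 had counts of 2945, 2490 and 2875 against 3822, 2705 and 7675 and was called as deposited only (-0.95, adjusted p = 0.0431). Of 17 neutrophil genes, Ceacam1 (-0.65), Ncf4 (-0.55) and Csf3r (-0.68) were lower (medians -0.14 and 0.05), and 0 were lower without any inhibitor sample or FAKKD 3. Of 14 dendritic cell genes, Clec4a2 (0.50) was higher and Ccl22 and Xcr1 lower (medians -0.39 and -0.19), and of 3 platelet genes 0 were called (medians 0.15 and 0.35). The dendritic cell calls were 0 higher and 1 lower without FAKi 6 or FAKKD 3.

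For many genes the interval of the difference was narrow enough to bound it. The 95% interval lay within -1 to 1 log2 units for 409 genes as deposited and 431 relative to the panel, and within -0.5 to 0.5 for 136 and 106. Of the 546 genes not called relative to the panel, 357 had an interval within -1 to 1. The 5 genes with the narrowest interval around 0 on the panel scale, among genes with a mean count of at least 100, were Ptprc, Cd9, Ifnar2, Atg7 and Tgfb1. Ptprc, the leukocyte common antigen CD45, had counts of 1105, 1211 and 887 against 981, 850 and 1121. Its difference relative to the panel was 0.00, with an interval from -0.22 to 0.22. Transforming growth factor beta 1 (Tgfb1), in contrast to Tgfb3, had a difference of -0.04 on that scale, with an interval from -0.27 to 0.20.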

How the data were processed

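RNA of ascites cells was counted with a NanoString panel of immune genes, 770 by the series' design text, of which 750 were in the table used here with 12 sample columns. The authors deposited log2 values; their software, normalization and background treatment are not stated in the labels or file used. Each linear value was a whole count multiplied by 1 factor per sample (all values whole within a tolerance of 0.01), so recovered counts are printed beside the log2 values. Of the gene symbols, 734 were current in the RefSeq table (GRCm38.p6), 8 were matched by synonym and 8 were unmatched.

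The 3 inhibitor and 3 FAKKD samples were compared with limma 3.58.1 in R 4.3.3 (lmFit and eBayes with a trend, two-sided, Benjamini-Hochberg over 750 genes, threshold 0.05), on the deposited log2 values and after shifting each sample to a common median. Errors of differences are moderated SEs and intervals are 95% intervals of the fit. Motifs were searched with pandas 2.3.3, exact permutation tests used scipy 1.17.1 and figures matplotlib 3.10.9. The test was checked on simulated data. The alternatives were other scalings, filters, thresholds, trend and weighting options, a replicate block, and leaving out each sample.

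The genes compared and the lists were chosen with earlier results of these data known. Named genes were the 12 highest and 12 lowest deposited differences among genes called on both scales with separate groups and a mean count of at least 20. The CD155-TIGIT genes, cell type markers, the 4 smallest p-values of each list and the 5 genes with the narrowest interval around 0 were also named. All other genes were named after their values were seen. Probes of near-identical gene families (Klra, H2, Gbp2b) may cross-react. A few genes that the tests covered are counted but not reported here by name.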

Additional observations from a re-analysis of the deposited data

How the results depend on the processing

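Of the genes chosen by the stated naming rule, none that was called reversed its direction under the alternatives run; other genes were not followed singly. Where the counts moved by more than 1.5 times, the cause was not tested. With array weights, 334 genes were called as deposited (104 higher, 230 lower), 335 relative to the panel (164 and 171) and 104 and 170 on both scales. Scaling changed the split as deposited: quantile normalization gave 110 higher and 87 lower, upper-quartile scaling 104 higher, and scaling to the total, chosen after seeing the data, 150 higher and 80 lower. A further minimum difference of 1 left 74 as deposited (10 and 64), 55 relative to the panel (20 and 35) and 10 and 34 on both scales. At an unadjusted p under 0.05, 151 genes were higher relative to the panel. Intervals within 0.5 rather than 1 held 136 and 106 genes.

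Leaving out 1 sample gave 126 to 241 genes as deposited (41 to 74 higher, 83 to 167 lower), 107 to 240 relative to the panel (53 to 117 higher, 52 to 123 lower) and 41 to 74 higher and 52 to 123 lower on both scales. As deposited the lowest counts were 126 without FAKi 4, 128 without FAKi 6 and 129 without FAKKD 3, and relative to the panel 107 without FAKi 6, 109 without FAKi 4 and 111 without FAKKD 3.

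The groups share the replicate numbers 4 and 5 only. Deviations of same-numbered samples correlated at 0.103 for number 4 and 0.318 for number 5, the latter the highest of all pairs. Those of other pairs ran from -0.275 to 0.2502, the value of FAKi 6 and FAKKD 3. With only 2 same-numbered pairs these values cannot decide whether the numbers pair samples. The labels do not say so, and the numbers were not taken as a pairing. With the replicate block, which leaves 2 pairs to set the difference, 9 genes were called as deposited (2 higher, 7 lower), 67 relative to the panel (25 and 42) and 2 and 7 on both scales.

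With 3 samples a group the median SE was 0.20 log2 units, and 147 genes had a mean count under 20, of which 3 were among the 168 called on both scales. The deposited scale rests on sample factors whose origin is not given, so small differences hold only relative to it.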

Other observations

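Several genes outside the gene lists, chosen after their values were seen, also separated the groups. The Fc receptor gene Fcgr4 had counts of 883, 906 and 705 against 1787, 3148 and 1853 (-1.71, adjusted p = 0.0072 in limma's test), and the Fc receptor gene Fcgr3 differed by -0.88 (adjusted p = 0.00407). The Src-family kinase genes Lyn (-0.99 ± 0.09, adjusted p = 0.00157) and Fyn (-0.71, adjusted p = 0.00362) were lower as well. Counts of Lyn were 754, 750 and 585 against 1109, 998 and 1230. The receptor tyrosine kinase genes Igf1r (0.88, adjusted p = 0.00894) and Axl (0.47, adjusted p = 0.00642) were higher, Axl with counts of 2111, 2261 and 2099 against 1274, 1067 and 1448. Il34, another ligand of the Csf1 receptor, was higher by 0.77 (adjusted p = 0.00552), in the same direction as Csf1.

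Spread within the groups was taken relative to the panel over the 431 genes with a mean count of at least 100. Among them the widest spread within both groups was that of Mpo, Elane, S100a8 and CD209e. The median SD of these 431 genes was 0.144 log2 units among inhibitor samples and 0.167 among FAKKD samples. Mpo, the gene of myeloperoxidase, had counts of 89, 1509 and 19 against 34, 19 and 539, with SDs of 3.03 and 2.44. Elane, the gene of neutrophil elastase, had counts of 37, 637 and 11 against 21, 13 and 187, and S100a8 had 1104, 6125 and 339 against 751, 488 and 3393. CD209e, a lectin gene, had 86, 533 and 37 against 24, 16 and 303, with SDs of 1.80 and 2.16. These 4 genes were highest in FAKi 5 and FAKKD 5 of their groups. Chil3, a chitinase-like gene of alternatively activated macrophages, had counts of 69, 446 and 37 against 574, 336 and 613 (-2.54, adjusted p = 0.0562 as deposited and 0.0475 relative to the panel).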
